A study of Mus musculus with 10 samples.

Results

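Expression of the subunits of the transcription factor NF-kB, of its inhibitors and of its feedback and adhesion target genes was described in mouse heart with and without the atypical protein kinase C isoform PKCz. The 10 genes listed were Nfkb1, Nfkb2, Rela, Relb, Nfkbia, Nfkbie, Nfkbiz, Tnfaip3, Icam1 and Vcam1. Members were all probe sets that the platform annotation gives to 1 of these symbols alone, whatever their values. The symbols themselves were listed with earlier results of these data known. This gave 9 of the 10 genes, out of 18193 genes on the array with a probe set of 1 symbol, and 20 of the 45037 probe sets tested. Nfkb1 was not analysed here. The mean level of 15 of the 20 probe sets lay at or above the median of all probe sets and that of 5 below it, and no member was filtered out. All hearts came from male SV129 littermates aged 32 weeks, either wild type (WT) or PKCz -/- (KO). Angiotensin II (AngII), a vasoconstrictor peptide used to provoke cardiac hypertrophy, was infused under the skin from osmotic minipumps at 432 µg/kg/day for 14 days. The controls received PBS according to the titles and the design text, whereas their source label calls them untreated. There were 2 arrays of WT PBS, 3 of WT AngII, 3 of KO PBS and 2 of KO AngII, and WT AngII 2, for example, is the WT AngII array numbered 2 in its title. The sources used here do not give the structure of the disrupted allele, nor whether each array came from a separate animal, so the spread between arrays may be partly technical.

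NF-kB is a family of dimeric transcription factors that inhibitors of the IkB family hold inactive in the cytoplasm. When cytokine or Toll-like receptors activate the IkB kinase complex, IkB is phosphorylated and degraded, and the released dimers enter the nucleus and bind kappa B sites. Nfkbia, Nfkbie and Tnfaip3 are themselves targets whose products restrain the pathway, and Icam1 and Vcam1 encode adhesion molecules that activated endothelium uses to capture leukocytes. PKCz is known as a kinase that can act upstream of the IkB kinases and phosphorylate RelA, which is the reason for looking at these genes in PKCz -/- hearts.

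Promoter sequence was examined because the inhibitors and feedback genes are textbook targets of NF-kB. RefSeq promoters on GRCm38.p6 were found for 6 of the 10 symbols, in 9 windows of 250 bases before an annotated start. Both strands were searched for the kappa B consensus and for its looser core GGGNNNNNCC. In the consensus, the first of the core's free bases (N) is A or G and the last 2 are C or T. Each consensus match is also a core match, and a site that reads alike on both strands is counted on each. The consensus was present in 7.25% of the 32851 mouse promoters of that length and the core in 45.8%. Of the members' windows, 6 of 9 held the consensus and 9 of 9 the core. The consensus was found in all 3 windows of Nfkb2, in those of Nfkbia and Nfkbie and in 1 of 2 of Tnfaip3, and these letters are not in the windows of Rela, Icam1 and the other Tnfaip3 start. Promoters of Nfkb1, Relb, Nfkbiz and Vcam1 were not used here. The 4 windows below are those of Nfkbia, Nfkbie, the first Tnfaip3 start and the first Nfkb2 start, shown because they hold the consensus, written 5′ to 3′ on the gene's strand and ending at the base before the start, with the bases of consensus matches in capitals. They lie at chr12:55492648-55492897 (minus strand) for Nfkbia, chr17:45555450-45555699 (plus strand) for Nfkbie, chr10:19015411-19015660 (minus strand) for Tnfaip3 and chr19:46304487-46304736 (plus strand) for Nfkb2.
Nfkbia: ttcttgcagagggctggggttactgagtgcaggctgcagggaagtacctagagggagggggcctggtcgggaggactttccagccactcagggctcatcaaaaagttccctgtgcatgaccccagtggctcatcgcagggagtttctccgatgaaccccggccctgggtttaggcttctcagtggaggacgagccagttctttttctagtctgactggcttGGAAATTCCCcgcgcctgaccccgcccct
Nfkbie: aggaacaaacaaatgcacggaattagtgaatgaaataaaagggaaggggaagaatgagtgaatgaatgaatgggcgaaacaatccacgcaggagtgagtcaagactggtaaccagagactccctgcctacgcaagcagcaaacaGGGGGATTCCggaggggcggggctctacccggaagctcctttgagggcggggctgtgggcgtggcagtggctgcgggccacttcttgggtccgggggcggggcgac
Tnfaip3: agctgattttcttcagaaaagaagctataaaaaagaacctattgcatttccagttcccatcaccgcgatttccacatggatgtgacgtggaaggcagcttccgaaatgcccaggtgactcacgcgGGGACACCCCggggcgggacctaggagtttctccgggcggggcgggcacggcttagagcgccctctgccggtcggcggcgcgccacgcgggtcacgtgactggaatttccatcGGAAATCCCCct
Nfkb2: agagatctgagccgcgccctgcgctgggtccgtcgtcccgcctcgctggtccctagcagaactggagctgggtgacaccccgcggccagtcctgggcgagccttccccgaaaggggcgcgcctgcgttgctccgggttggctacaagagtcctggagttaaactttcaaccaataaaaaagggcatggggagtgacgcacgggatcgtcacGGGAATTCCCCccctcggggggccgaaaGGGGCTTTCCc
The Nfkbia match runs from base 29 to base 20 before the start, and the Nfkbie match from base 106 to base 97. A match in these letters is a description of the sequence and not a measured binding site. Nor does a window without a match show that a site is lacking.

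The libraries behind the values differed in ways the groups do not share equally. The added poly-A spike-in controls split the arrays into 7 with a mean of 12.86 to 13.33 (log2) and 3 with 6.90 to 7.08, namely KO PBS 4 and both KO AngII arrays. Values with this split as a block are given as "blocked", and for KO AngII they rest on KO PBS 4 alone. WT AngII 2 stood apart by a mean fibroblast marker level of 11.96, against 9.69 and 9.91 in the other WT AngII arrays. The targeted gene Prkcz read 6.23 to 6.45 in WT and 5.70 to 5.87 in KO arrays (probe set 1418085_at, exact two-sided permutation p = 0.01, the smallest this design allows). The 12 cardiomyocyte markers averaged 13.91 to 13.92 in KO PBS, 13.97 to 13.99 in WT PBS, and 13.96 to 13.99 in both WT AngII and KO AngII. All values are RMA log2 levels, and a log2 difference is given with its standard error (SE).

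No NF-kB member differed between genotypes or treatments at an adjusted p under 0.05. Each of the 20 probe sets was fitted in 7 comparisons with limma, with Benjamini-Hochberg adjustment over all 45037 probe sets, and 0 of the 140 values passed. The largest difference belonged to Nfkbiz probe set 1417483_at, for KO against WT under PBS. Its mean level over all arrays, 5.65, lay below the median probe set level of 6.19. That probe set and the 5 of Nfkbia had their highest group mean in WT PBS hearts. So did those of Rela, Relb and Icam1, and Nfkbiz 1457404_at, Tnfaip3 1433699_at and Vcam1 1448162_at, whereas the remaining member probe sets did not. In whole heart RNA, fewer cells of a type and less RNA per cell cannot be told apart. Very few probe sets passed in any comparison: 0.0133% for KO against WT under PBS, 0.0111% for KO against WT under AngII, 0.0444% for KO against WT averaged over treatments, and 0 for both AngII effects, for their average and for the difference between them (interaction). At an unadjusted p under 0.05, limma marked 7 of the 20 members for KO against WT under PBS, where 6.29% of all probe sets reached it. The count was 3 for KO against WT under AngII (6.51% of all), 10 for KO against WT averaged over treatments (12.4%), 3 for AngII in WT (5.23%), 1 for AngII in KO (4.57%), 0 for the interaction (1.64%) and 3 for AngII averaged over genotypes (9.62%). With the spike-in block the genotype counts were 5 under PBS (4.88% of all probe sets under that block), 0 under AngII (1.65%) and 1 for the average (3.13%), and the interaction had 1 (1.55%). Of the 7 probe sets counted under PBS without the block, 5 measure the single gene Nfkbia and share its transcript, and the other 2 measure Nfkbiz. Of the 10 counted for the averaged genotype difference, 5 are again those of Nfkbia. By the brightest probe set of each gene, 1 of 9 genes was marked under PBS and 4 of 9 for the average.

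**Figure D1:**
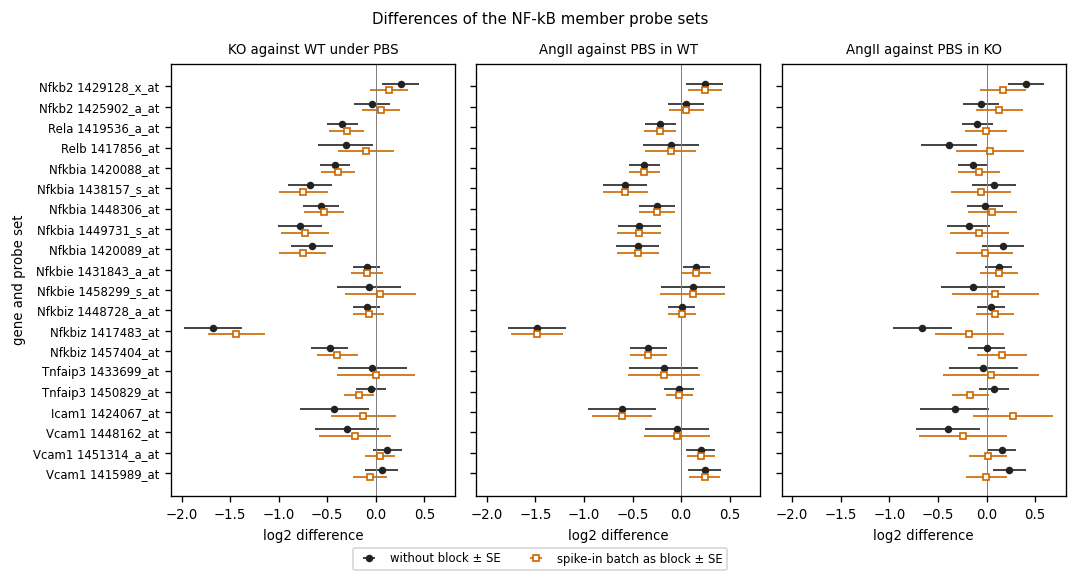
Log2 differences (x axis) of the 20 member probe sets (y axis) for KO against WT under PBS, AngII against PBS in WT and AngII against PBS in KO, as filled circles without and open squares with the spike-in split as a block, with bars of 1 SE. Nfkbiz 1417483_at lies farthest from 0 in the first panel, at -1.68, and the 5 Nfkbia probe sets lie between -0.78 and -0.42 there.

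Nfkbia encodes IkB-alpha, the inhibitor that binds RelA dimers and is resynthesised on their command. Its brightest probe set, 1420088_at, read 11.74 and 11.95 in WT PBS, 11.51, 11.63 and 11.25 in WT AngII, 11.34, 11.56 and 11.36 in KO PBS, and 11.06 and 11.50 in KO AngII. Both WT PBS arrays were above all 8 other arrays on this probe set. On it KO minus WT under PBS was -0.42 ± 0.16 (limma adjusted p = 0.741). Probe set 1449731_s_at read 9.28 and 9.85 in WT PBS, 9.14, 8.90 and 9.37 in WT AngII, 8.58, 9.10 and 8.68 in KO PBS, and 8.45 and 8.76 in KO AngII. Here the KO PBS arrays lay below both WT PBS arrays, and WT AngII overlapped WT PBS. Its difference under PBS was -0.78 ± 0.22 (1.72-fold, adjusted p = 0.616 by limma), which was -1.07 without WT PBS 3 and -0.50 without WT PBS 5.

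The 5 Nfkbia probe sets gave the same sign for KO against WT under PBS. All 5 were below 0, from -0.78 to -0.42 (limma adjusted p from 0.616 to 0.741) and from -0.75 to -0.39 blocked. Without WT PBS 5 they were -0.50 to -0.26, and without WT PBS 3 they were -1.07 to -0.53. In each of them the 3 KO PBS arrays lay below the 2 WT PBS arrays. AngII against PBS in WT, which uses the same WT PBS arrays, gave -0.58 to -0.25 over the 5 (limma adjusted p = 0.93), without overlap of the arrays in 2 of them. Without WT PBS 5 this AngII difference was -0.27 to 0.03, above 0 for 1448306_at. AngII against PBS in KO gave -0.18 to 0.17, and the interaction 0.24 to 0.65 (limma adjusted p = 1). Without WT PBS 5 the interaction was -0.05 to 0.32, below 0 for 1448306_at and 1449731_s_at. KO against WT under AngII gave -0.53 to -0.03 (limma adjusted p from 0.734 to 0.975). Averaged over treatments, KO minus WT was -0.66 to -0.30 (limma adjusted p from 0.248 to 0.4) and -0.55 to -0.24 blocked. Probe set 1448306_at read 9.90 and 10.47 in WT PBS, 10.01, 9.89 and 9.91 in WT AngII, 9.50, 9.81 and 9.55 in KO PBS, and 9.44 and 9.78 in KO AngII. It was the 1 member probe set of 20 on which all 5 KO arrays lay below all 5 WT arrays, a pattern found in 0.613% of all probe sets, and on 0 of 20 did all KO arrays lie above (0.822% of all). Between the 5 probe sets, Pearson's r over the 10 arrays ran from 0.69 to 0.94 in the 10 pairs, a description of probe sets for 1 gene.

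**Figure D2:**
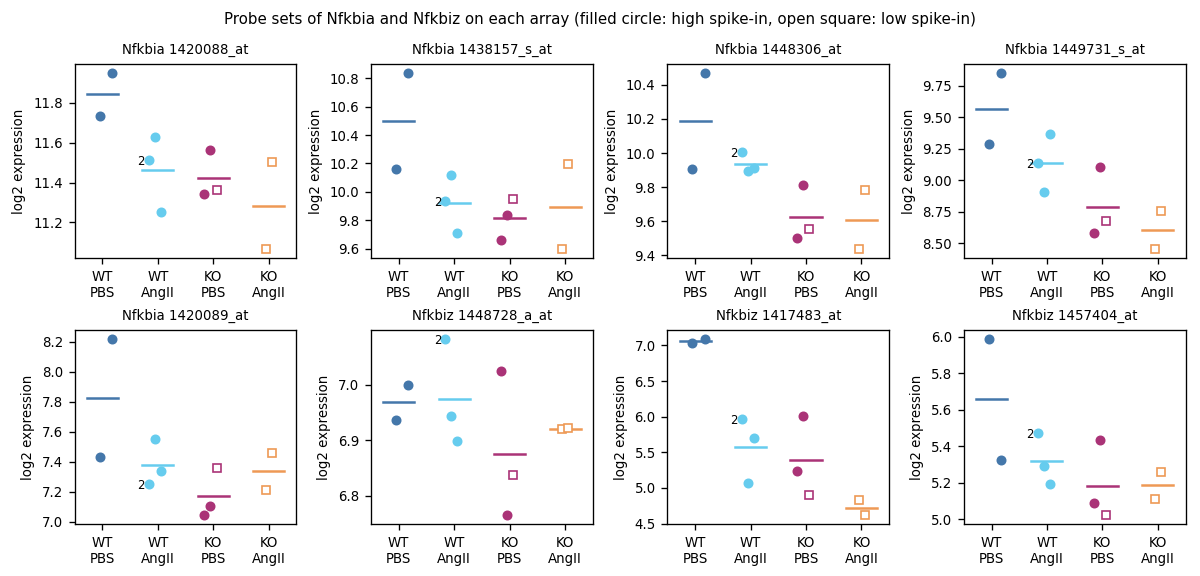
Log2 level (y axis) on each array of the 4 groups (x axis) for the 5 probe sets of Nfkbia and the 3 of Nfkbiz; filled circles are arrays of high and open squares of low spike-in signal, a horizontal line is the group mean and the digit 2 marks WT AngII 2. The WT PBS points lie highest for Nfkbiz 1417483_at (7.03 and 7.09) and for Nfkbia 1420088_at (11.74 and 11.95).

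Nfkbiz encodes IkB-zeta, a nuclear IkB protein that is induced rapidly by interleukin and Toll-like receptor signals and helps NF-kB to switch on a subset of secondary targets. Probe set 1417483_at read 7.03 and 7.09 in WT PBS, 5.97, 5.06 and 5.71 in WT AngII, 5.24, 6.01 and 4.90 in KO PBS, and 4.83 and 4.62 in KO AngII. The WT PBS arrays stood alone at the top, the KO AngII arrays were lowest, and WT AngII and KO PBS overlapped between them. The group means were 7.06 ± 0.04 (SD, n = 2), 5.58 ± 0.46 (SD, n = 3), 5.39 ± 0.57 (SD, n = 3) and 4.73 ± 0.15 (SD, n = 2). KO minus WT under PBS was -1.68 ± 0.30, a 3.20-fold difference (limma adjusted p = 0.267), and -1.44 blocked or within the arrays of high spike-in signal. Leaving out single arrays moved it between -1.99 and -1.44.

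AngII minus PBS on the same probe set was -1.48 ± 0.30 in WT (limma adjusted p = 0.709) and -0.66 ± 0.30 in KO (adjusted p = 0.892 by limma, -0.18 blocked). The difference between these effects was 0.82 ± 0.42 (limma adjusted p = 1), and 1.31 blocked. KO minus WT under AngII was -0.85 ± 0.30 (limma adjusted p = 0.734), and -0.13 blocked. Averaged over treatments it was -1.27 ± 0.21 (limma adjusted p = 0.117), and -0.78 blocked. Its limma adjusted p was 0.0344 without WT AngII 3 and 0.0286 without KO PBS 3, so leaving out 1 of these arrays moved it past the threshold, and it ran from 0.0286 to 1 over all alternatives.

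The other Nfkbiz probe sets did not repeat this size. Probe set 1448728_a_at, the brightest, lay between 6.76 and 7.08 on all 10 arrays, and its KO minus WT under PBS was -0.09 ± 0.14. Probe set 1457404_at read 5.99 and 5.32 in WT PBS, 5.47, 5.29 and 5.19 in WT AngII, 5.09, 5.43 and 5.02 in KO PBS, and 5.11 and 5.26 in KO AngII. It was high on WT PBS 3 alone, and its KO minus WT under PBS was -0.48 ± 0.19 (limma adjusted p = 0.751). The 3 probe sets correlated with each other at r = 0.10 to 0.72 over the 10 arrays. The large Nfkbiz difference therefore stands on 1 of 3 probe sets. That probe set and 1457404_at were dim, with means of 5.65 and 5.32 against a median probe set level of 6.19.

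Nfkbie encodes IkB-epsilon, a cytoplasmic inhibitor of RelA and c-Rel dimers. Both of its probe sets were dim, at a mean of 4.96 for 1431843_a_at and 4.22 for 1458299_s_at, below the median probe set level of 6.19. Probe set 1458299_s_at read 5.29 on WT AngII 2 and 3.88 to 4.43 on the other 9 arrays. Its KO minus WT under PBS was -0.07 ± 0.33, and AngII minus PBS in WT 0.12 ± 0.33 (limma adjusted p = 0.98 and 0.984). The latter was -0.34 without WT AngII 2.

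Among the subunits, Rela encodes RelA, the activating partner of the main dimer. Its probe set 1419536_a_at read 9.68 and 9.76 in WT PBS, 9.73, 9.23 and 9.55 in WT AngII, 9.37, 9.47 and 9.28 in KO PBS, and 9.32 and 9.24 in KO AngII. The WT PBS arrays lay above all KO arrays, while WT AngII spanned nearly the whole range. For KO minus WT under PBS the difference was -0.35 ± 0.16 (limma adjusted p = 0.793), and -0.30 blocked. AngII minus PBS in WT was -0.22 ± 0.16 (limma adjusted p = 0.93), -0.08 without WT AngII 3 and -0.33 without WT AngII 2.

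Relb encodes RelB, the partner of the processed Nfkb2 product in the slower, non-canonical arm. Probe set 1417856_at read 6.84 and 6.85 in WT PBS, 7.33, 6.29 and 6.61 in WT AngII, 6.54, 6.95 and 6.11 in KO PBS, and 6.06 and 6.24 in KO AngII. The 3 lowest values were those of the 3 arrays of low spike-in signal, and the highest was WT AngII 2. Under AngII, KO minus WT was -0.59 ± 0.29 (limma adjusted p = 0.734), -0.30 without WT AngII 2 and 0.04 blocked.

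Nfkb2 encodes the precursor of that non-canonical subunit, and its 2 probe sets ran in opposite directions (r = -0.54 over the 10 arrays). Probe set 1429128_x_at read 7.85 and 7.85 in WT PBS, 7.78, 8.23 and 8.27 in WT AngII, 7.88, 8.09 and 8.35 in KO PBS, and 8.49 and 8.54 in KO AngII. Its 3 highest values were again those of the arrays of low spike-in signal. Under AngII, KO minus WT was 0.42 ± 0.19 (limma adjusted p = 0.734) and 0.06 blocked. Probe set 1425902_a_at gave -0.15 ± 0.19 for the same comparison (limma adjusted p = 0.827), with all arrays between 7.68 and 8.23. No direction for Nfkb2 is therefore given.

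**Figure D3:**
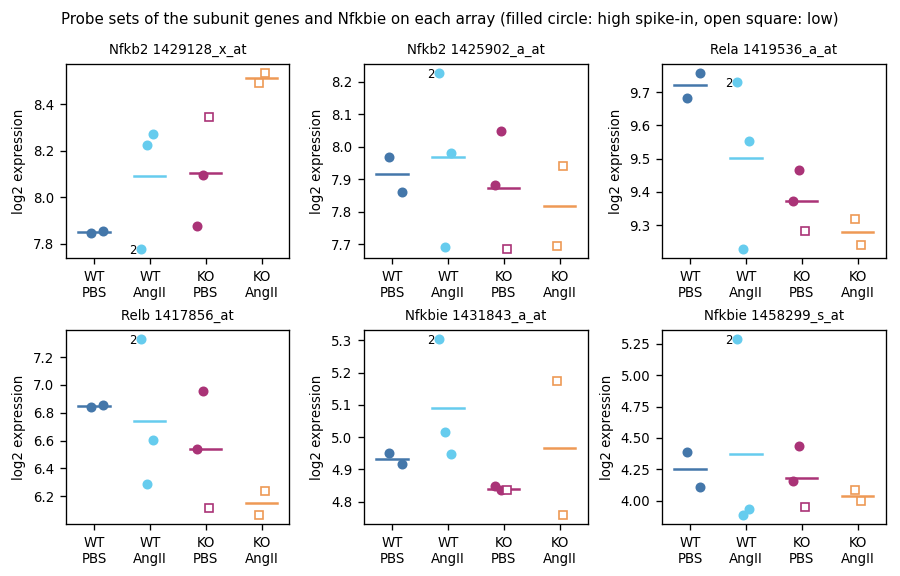
Log2 level (y axis) on each array of the 4 groups (x axis) for the probe sets of the subunits Nfkb2, Rela and Relb and of the inhibitor Nfkbie, with symbols as in the plot of Nfkbia and Nfkbiz. The low spike-in arrays, drawn as open squares, hold the 3 highest values of Nfkb2 1429128_x_at and the 3 lowest of Relb 1417856_at.

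Tnfaip3 encodes a ubiquitin-editing enzyme that shuts off signalling to the IkB kinases. Probe set 1433699_at read 6.55 and 6.32 in WT PBS, 7.14, 5.98 and 5.64 in WT AngII, 6.06, 6.81 and 6.31 in KO PBS, and 6.26 and 6.46 in KO AngII. WT AngII held both the highest and the lowest value, and all 4 groups overlapped. AngII minus PBS in WT was -0.18 ± 0.36 (limma adjusted p = 0.979), and -0.62 without WT AngII 2. Under PBS, KO minus WT was -0.04 ± 0.36 (limma adjusted p = 0.991). The dimmer probe set 1450829_at stayed between 5.49 and 6.00 and ran against the first (r = -0.62).

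Icam1 encodes the ligand of leukocyte integrins on activated endothelium. Its probe set 1424067_at read 7.80 and 7.46 in WT PBS, 7.80, 6.53 and 6.74 in WT AngII, 7.54, 7.46 and 6.61 in KO PBS, and 6.96 and 6.79 in KO AngII. High values occurred in every group except KO AngII. AngII minus PBS in WT was -0.61 ± 0.35 (limma adjusted p = 0.93), and -1.0 without WT AngII 2. Under PBS, KO minus WT was -0.43 ± 0.35 (limma adjusted p = 0.875) and -0.13 blocked. For KO minus WT under AngII it was -0.15 ± 0.35, 0.24 without WT AngII 2 and 0.75 blocked, so its direction was not settled.

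Vcam1 encodes an endothelial ligand for an integrin of monocytes and lymphocytes. Its brightest probe set, 1448162_at, read 8.05 and 8.03 in WT PBS, 8.81, 7.61 and 7.59 in WT AngII, 7.78, 7.88 and 7.59 in KO PBS, and 6.97 and 7.73 in KO AngII. WT AngII 2 was highest and KO AngII 3 lowest, each apart from the other arrays of its group. KO minus WT under AngII was -0.66 ± 0.33 (limma adjusted p = 0.734), and -0.26 without WT AngII 2. AngII minus PBS in WT was -0.04 ± 0.33 (limma adjusted p = 0.995), and -0.44 without that array. The other 2 probe sets, 1451314_a_at and 1415989_at, ran from 6.82 to 7.53 over all arrays, with AngII minus PBS in WT of 0.20 ± 0.15 and 0.24 ± 0.17. The 3 probe sets correlated at r = -0.41 to 0.84, so they do not give 1 common order of the arrays.

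**Figure D4:**
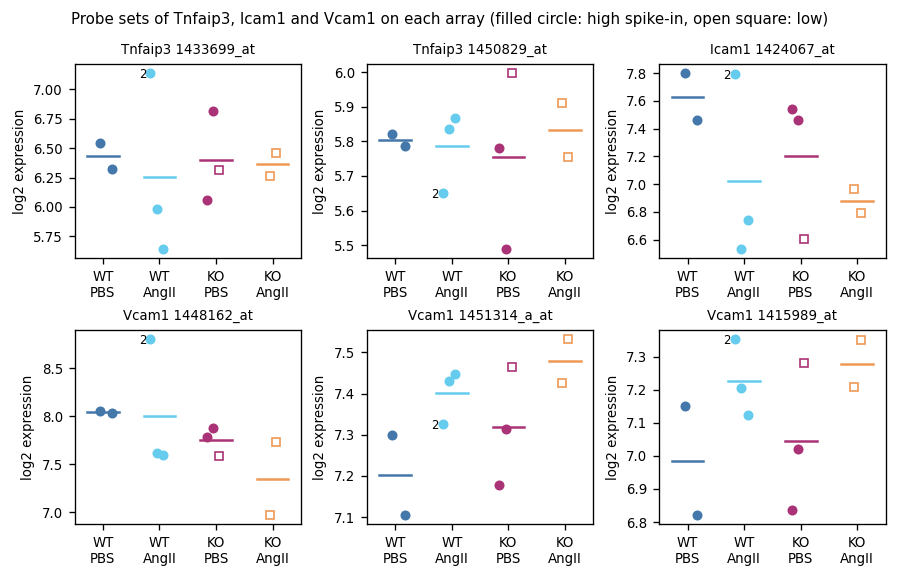
Log2 level (y axis) on each array of the 4 groups (x axis) for Tnfaip3, Icam1 and Vcam1, with symbols as in the plot of Nfkbia and Nfkbiz. WT AngII 2, marked by its digit, has the highest value of Tnfaip3 1433699_at (7.14) and of Vcam1 1448162_at (8.81).

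Counted over all members, 17 of the 20 probe sets were below 0 for KO against WT under PBS, with a median of -0.30 against 0.01 over all probe sets, of which 46.5% were below 0. Blocked, 15 were below 0 and the median was -0.15. The KO PBS arrays lay wholly below WT PBS for 9 of the 20 (10.8% of all probe sets), 5 of them of the 1 gene Nfkbia, and wholly above for 1 (13.2%). With the brightest probe set of each gene, 8 of 9 genes were below 0, 4 without overlap. Under AngII, 15 of the 20 were below 0 (42.5% of all), with a median of -0.14 against 0.03, and the KO arrays lay wholly below for 4 (11.2%) and wholly above for 1 (16% of all). Blocked, 12 were below 0 and the median was -0.11. For AngII in WT the median was -0.14 against 0.01, with 3 probe sets wholly lower (11.3%) and 1 wholly higher (8.4%). For AngII in KO the median was -0.02 against 0.02, and 0.03 blocked, with 1 wholly lower (10.8%) and 1 wholly higher (13.7%). Both KO against WT under PBS and AngII in WT are set against the same 2 WT PBS arrays, so their values are not independent. WT PBS 5 gave the highest value of 7 of the 20 member probe sets, against 11.4% of all probe sets, and WT AngII 2 that of 8, against 16.8%. The 7 include the 5 probe sets of Nfkbia, which share 1 transcript.

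Other measured features moved beside these values. The 19 immediate early genes, which handling or a stimulus induces within minutes, averaged 9.16 and 9.80 in WT PBS, 8.11 to 8.69 in WT AngII, 7.70 to 8.49 in KO PBS and 8.02 in both KO AngII arrays. The WT PBS arrays were highest there, as for Nfkbiz 1417483_at and Nfkbia 1420088_at. For KO against WT under PBS, 18 of these 19 genes were below 0, with a median of -1.04 (-0.74 blocked), 17 at an unadjusted p under 0.05 and 0 at an adjusted p under 0.05. The 18S ribosomal RNA probe sets also read highest in WT PBS, at 8.18 to 9.39 against 6.65 to 8.07 elsewhere. The 12 macrophage markers averaged 8.38 to 8.55 in WT PBS, 8.30 to 9.47 in WT AngII, 8.05 to 8.24 in KO PBS and 8.29 to 8.47 in KO AngII, with 1 of the 12 below the median probe set level. For KO against WT under PBS 11 of the 12 were below 0, with a median of -0.33, and WT AngII 2 held the highest mean. The 10 fibroblast markers averaged 9.30 to 9.71 in WT PBS, 9.69 to 11.96 in WT AngII, 9.42 to 9.52 in KO PBS and 10.09 to 10.40 in KO AngII. The 12 markers of endothelium, where Icam1 and Vcam1 are best known, averaged 9.14 to 9.15, 8.79 to 9.12, 8.74 to 9.27 and 8.90 to 8.99 in these groups. Of the remaining lists, 6 neutrophil markers averaged 6.15 to 7.35 and 7 lymphocyte markers 6.08 to 6.42 over all arrays, with 2 of each list below the median probe set level. For KO against WT under PBS 9 of 10 smooth muscle and pericyte markers were below 0, with a median of -0.21. The actin probe sets at the 3′ end exceeded those at the 5′ end, a sign of RNA quality, by 1.17 to 1.70 in WT PBS, 0.92 to 1.33 in WT AngII, 0.75 to 1.38 in KO PBS and 0.74 to 0.83 in KO AngII. The part of these features in the NF-kB values was not tested.

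**Figure D5:**
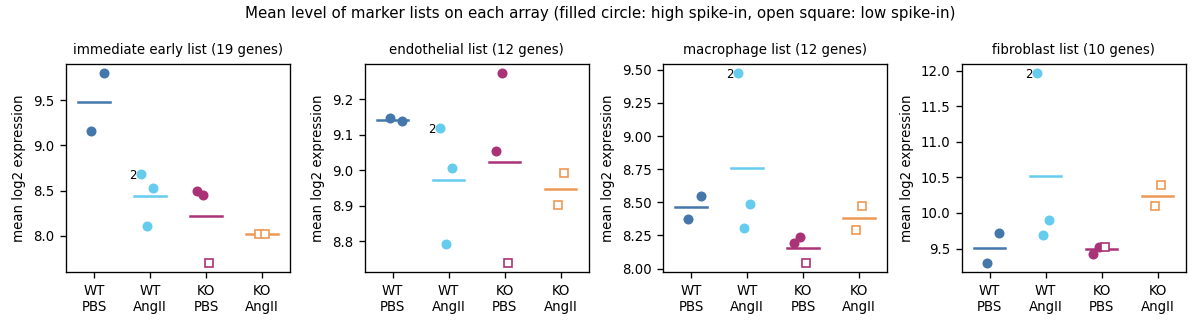
Mean log2 level (y axis) of marker lists on each array of the 4 groups (x axis), with symbols as in the plot of Nfkbia and Nfkbiz. The immediate early mean is highest in the 2 WT PBS arrays (9.16 and 9.80), and WT AngII 2 has the highest fibroblast mean (11.96).

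The rest of the pathway was followed in 72 further genes, the targeted gene Prkcz among them, each by its brightest probe set. Of these, 0 passed in any of the 7 comparisons. For KO against WT under PBS 52 of the 72 were below 0 (46.5% of all probe sets) and 9 had an unadjusted p under 0.05 by limma (6.29% of all). For AngII in WT the counts were 46 (48.4% of all) and 10 (5.23%), and for AngII in KO 42 (46.2%) and 3 (4.57%). For KO against WT under AngII they were 44 (42.5%) and 4 (6.51%), and for the averaged genotype difference 49 (42.4%) and 13 (12.4%). The 3 in KO and the 4 under AngII are near the share over all probe sets. Within the atypical PKC arm of 6 genes, Prkci, the closest relative of PKCz, differed by -0.53 ± 0.17 between genotypes averaged over treatments (limma adjusted p = 0.318), and by -0.15 blocked. Sqstm1, the scaffold that links atypical PKC to receptor complexes, differed by 0.21 ± 0.12. Of a list of 5 genes of the IkB kinase complex and related kinases, 4 were measured. All 4 were below 0 for KO against WT under AngII (42.5% of all probe sets), with a median of -0.33 and -0.19 blocked. Ikbkb, the kinase of the canonical arm, was at -0.78 ± 0.24 (limma adjusted p = 0.734) and -0.16 blocked. Ikbkg, its regulatory subunit, was at -0.27 ± 0.17 (-0.20 blocked) and Tbk1, a related kinase, at -0.39 ± 0.16 (-0.18 blocked).

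Upstream receptors and adaptors were below 0 in 16 of 21 genes for KO against WT under PBS, with a median of -0.20. The smallest p in that list belonged to Birc2, a ubiquitin ligase of the tumour necrosis factor receptor complex, with -0.47 ± 0.12 for AngII averaged over genotypes (limma adjusted p = 0.483). Tab2 and Tab3, adaptors of the kinase TAK, gave -0.29 ± 0.10 and -0.40 ± 0.14. Other negative regulators were below 0 in 10 of 12 genes under PBS, led by the deubiquitinase Otulin at -0.57 ± 0.17 (limma adjusted p = 0.651). Cyld, another deubiquitinase, gave -0.35 ± 0.19 and the ubiquitin ligase Itch -0.36 ± 0.21. Among the 4 other subunits and IkB proteins, Rel, which encodes c-Rel, differed by -0.56 ± 0.17 for AngII in WT (limma adjusted p = 0.93). Bcl3 gave -0.18 ± 0.31 and Nfkbib -0.03 ± 0.17 there.

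Of the 25 other NF-kB target genes, the count below 0 differed from comparison to comparison. For AngII in WT, 19 of 25 were below 0 (48.4% of all probe sets), with a median of -0.17 against 0.01 over all. For AngII in KO, 13 of these 25 genes were below 0 (46.2% of all), with a median of -0.01 against 0.02. They were below 0 in 17 of 25 for KO against WT under PBS (46.5% of all), with a median of -0.13 against 0.01. For KO against WT under AngII, 10 of 25 were below 0 (42.5% of all), with a median of 0.05 against 0.03. The counts for AngII in KO and for KO against WT under AngII are near the share over all probe sets. The chemokine gene Cxcl1 differed by -0.44 ± 0.14 for AngII averaged over genotypes (limma adjusted p = 0.483). Nos2, the inducible nitric oxide synthase, gave 0.27 ± 0.12 and F3, tissue factor, -0.27 ± 0.12 in the same comparison.

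The genes whose array pattern was most like that of a member were sought among 12123 genes over the 10 arrays, as a description. For Nfkbia 1420088_at they were Vapa (r = 0.97), Zdhhc6 (0.95) and Gimap8 (0.95), and without the 2 arrays farthest from the median Nfkbia level, KO AngII 3 and WT PBS 5, r was 0.97, 0.87 and 0.95. For Nfkbiz 1448728_a_at they were Itih4, Ms4a6d and Serpinb6e (r = 0.90 to 0.91), and 0.77 to 0.83 without the 2 farthest arrays. For Tnfaip3 1433699_at they were Cdk5, Med21 and Tmem208 (0.96 to 0.97, and 0.88 to 0.93). For Icam1 they were Lrrc41, H2ax and B4galt3 (0.96, and 0.93 to 0.94). For Vcam1 1448162_at they were Anxa4, Anapc10 and Aldh16a1 (0.96 to 0.97), and leaving out WT AngII 2 and KO AngII 3 brought r to 0.81. The arrays share groups and spike-in levels, so these values describe the arrays and carry no p.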

How the data were processed

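Heart RNA of 10 samples in 4 groups was hybridised to 1-colour Affymetrix arrays, from 6 µg total RNA each, per the labels' protocols. The deposited values are on a log2 scale, 1 per array for 45101 probe sets, and the submitters' processing notes name RMA as the authors' method. Which version of RMA was run is not stated in the sources used here. RMA is meant to equalise array distributions, and it compresses differences of dim probe sets. Without the control probe sets, the array medians were 6.12 to 6.20 at high spike-in signal and 6.22 to 6.23 at low spike-in signal. Precision is set by the number of arrays.

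Control probe sets (64) were removed. Symbols came from GEO's platform annotation, updated with RefSeq for GRCm38.p6, which also gave the promoters. Of the 45037 probe sets tested, 34945 had 1 symbol, 932 several and 9160 none. All comparisons came from 1 limma model (version 3.58.1, R 4.3.3) of the 4 group means, with trended eBayes, two-sided moderated tests, Benjamini-Hochberg adjustment over the 45037 probe sets, 6 residual degrees of freedom and a threshold of 0.05. The procedure was tested on simulated data. Alternatives were equal medians, repeated quantile normalisation, a filter at the median level, eBayes without trend, the title number as a block, the spike-in split as a block (also without WT AngII 2), only the arrays of high spike-in signal, only the 2 groups compared, and each array left out. The title numbers were not taken to pair the samples. All member probe sets were described. Of each pathway list, up to 3 genes of smallest unadjusted p were named, in the comparison that held the smallest. The members and lists were chosen with earlier results of these data known.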

Additional observations from a re-analysis of the deposited data

How the results depend on the processing

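For the 140 member differences, 2542 values were set beside the reported ones. Most were recomputed under the alternatives, and the rest are a gene's other probe sets set beside its brightest. Of these, 2362 stayed short of the threshold and within 1 residual SD of the reported value, 177 moved farther without passing, and 3 passed the threshold, all of Nfkbiz 1417483_at. Many of the 2362 could not move. A difference between 2 groups is unchanged when an array of another group is left out. It is also unchanged without the eBayes trend, with the level filter and with only the 2 groups fitted. The count is therefore not a measure of stability. They were AngII in WT with the spike-in block and without WT AngII 2 (-1.68, limma adjusted p = 0.045, with 0.045 to 1 over its alternatives), and the averaged genotype difference without WT AngII 3 (-1.40, 0.0344) and without KO PBS 3 (-1.42, 0.0286). Member probe sets called were then 1 in each, and 0 in the other alternatives, so they ranged from 0 to 1 over single arrays left out for the averaged genotype difference.

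Of all 45037 probe sets, limma called 0 for AngII in WT, 0 for AngII in KO, 0 for the interaction, 6 for KO against WT under PBS, 5 under AngII, 20 averaged over treatments and 0 for AngII averaged over genotypes. With single arrays left out, these counts ran from 0 to 3, 0 to 3, 0 to 2, 4 to 22, 4 to 8, 10 to 30 and 0 to 2. With the title number as a replicate block, 1 probe set was called for AngII in WT, 3 for KO against WT under PBS, 3 under AngII and 5 averaged. Whether the title numbers pair the samples was not settled. In their deviations from group means, same-numbered arrays correlated at -0.355 to 0.103, over 0.1 in 1 of 10 pairs. Arrays of different numbers correlated at -0.309 to 0.311, over 0.1 in 5 of 27. In a group of 2 arrays these deviations are mirror images, so the correlations are not independent and cannot exclude pairing. With the spike-in block, 2 were called for KO against WT under AngII and 5 averaged. With that block and without WT AngII 2, the counts were 20 for AngII in WT, 17 for KO against WT under PBS, 2 under AngII, 6 averaged and 2 for AngII averaged over genotypes. The high spike-in arrays alone gave 3 for KO against WT under PBS, and the 2 groups alone 2 for AngII in KO. The filter at the median level gave 3 for KO against WT under AngII and 13 averaged, and eBayes without trend 13 averaged. For KO against WT under AngII, repeated quantile normalisation called 1 higher and 5 lower, against 0 and 5. The cause of these shifts was not tested. Another scaling turned the sign of 14 member values, 4 of them under both scalings, and none was larger than 0.054 before it.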
